A study of Bos taurus and Sus scrofa with 10 samples.

Results

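In cow (Bos taurus) and pig (Sus scrofa), 258 genes moved in opposite directions between the oocyte and the blastocyst. They were chosen from 13251 gene symbols that both species' tables carry, by the change in log2(RPM + 1), where RPM is reads per 1000000 reads of the library. A symbol was kept when its blastocyst value differed from its oocyte value by 2 or more (4-fold on the scale used) in both species and with opposite sign. 121 of the genes were higher in the cow blastocyst and lower in the pig blastocyst, and 137 were lower in cow and higher in pig. 1 further symbol in each direction met the same thresholds and was left out by the rule. Of the 1940 symbols that changed by 2 or more in both species, 13.3% moved opposite ways and the other 1682 moved the same way. These oocyte and blastocyst values chose the genes, so they are given as a description and carry no test.

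Each species was sampled as oocytes and as embryos of 2-4 cells, of 8-16 cells, at the morula (when the cells compact) and at the blastocyst (when a cavity has formed). Each of the 10 groups was 1 library of total RNA, so no difference has a replicate check and no p-value is given. By its title, the series belongs to work on methylation of embryo DNA and on how species differ in it. Breed, age, in vivo or in vitro origin and the number of oocytes or embryos in a library are not given in the sources used here. In bulk libraries such as these, fewer cells of a type and less RNA per cell cannot be told apart. Each species' table was scaled on its own, so a change is always one within a species, and levels were compared across species only by rank. RPM values of cow and pig printed together are each species' own.

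A mammalian oocyte stores RNA that serves the first cleavages, and this maternal RNA is then cleared while the genome of the embryo begins to be transcribed. In cow that activation is known to be strongest around the 8-16 cell stage, and in pig it is known to begin earlier. At the blastocyst stage the outer trophectoderm pumps fluid into the cavity, and the inner cell mass parts into epiblast and hypoblast, the layer that lays down basement membrane.

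Read totals ran from 3002751 to 14182046, with the pig morula the shallowest library and the cow blastocyst the deepest. A count of 0 reads allows a level of up to 3 reads, which is 0.212 RPM in the cow blastocyst and between 0.552 and 0.999 RPM in the other 9 libraries. Mitochondrial genes took 2.74% to 30.2% of the reads, with the highest share in the cow blastocyst. The 10 listed oocyte markers fell from a summed 6091 to 0.282 RPM in cow, and the 9 of them in the pig table from 7163 to 22.3 RPM. Trophectoderm markers rose in cow from 141 to 4247 RPM and in pig from 21.0 to 10195 RPM. Of the 5 listed epiblast markers the pig table holds 3, NANOG, SOX2 and PRDM14. These had reads in the cow blastocyst and 0 reads in the pig blastocyst. In cow the 5 markers fell from a summed 2782 RPM in the oocyte to 275 RPM in the blastocyst. In pig the 3 summed to 1.18 RPM in the oocyte and 28.3 RPM in the morula. Reads are not independent molecules, since RNA was amplified before sequencing and the labels describe no molecular identifiers. Intervals and floors given here therefore cover counting error only.

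Among all 9740 symbols with at least 1 RPM at either stage, 21.3% were called higher in the cow blastocyst and 18.7% lower, and in pig 26.2% of 9740 were called higher and 19% lower. Both calls together, higher in cow and lower in pig, held for 1.42% of the 8567 symbols tested in both species, and the reverse pair for 1.61%, each with the left-out symbol included. Those shares restate the rule, and nothing is read from them. The smaller of a gene's 2 changes was 3 or more for 47 of the 258 genes. Closest inside the threshold lay CLCN3 (2.04 in cow and -2.02 in pig), COMMD7 (3.47 and -2.02) and SH3BGRL (5.73 and -2.02). GREB1L (1.99 and -4.60), ADPGK (3.47 and -1.99) and ZNF555 (1.98 and -3.69) lay just outside. In the other direction ACSS2 (-2.43 and 2.02), MSANTD4 (-2.02 and 4.04) and MBNL2 (-2.03 and 2.11) were just inside, and CEP68 (-1.99 and 2.19), OSBPL8 (-1.99 and 3.98) and DIEXF (-1.99 and 2.26) just outside.

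**Figure D1:**
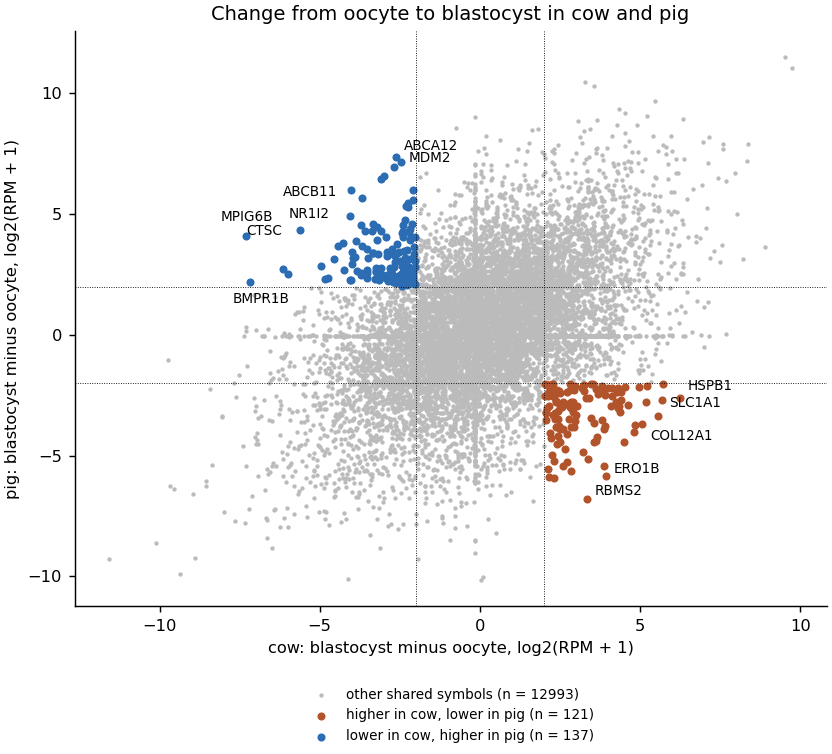
Change from oocyte to blastocyst in log2(RPM + 1) for every shared symbol, cow on the horizontal and pig on the vertical axis, 1 point per symbol from 1 library per stage. Dotted lines mark changes of 2 and -2. The 121 genes higher in cow and lower in pig fill the lower right corner and the 137 genes lower in cow and higher in pig the upper left, where MPIG6B and BMPR1B reach -7.30 and -7.16 in cow and ABCA12 reaches 7.37 in pig.

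Many of these genes were scarce at their lower end. Of the 121 genes higher in cow, 19 had 0 reads in the cow oocyte and 39 had 0 reads in the pig blastocyst. Of the 137 genes lower in cow, 22 had 0 reads in the cow blastocyst and 24 in the pig oocyte. At the higher of both stages, 168 genes reached 10 RPM in each species and 16 reached 100 RPM in each. Levels at the higher stage spanned 3.45 to 633 RPM in cow and 4.44 to 1847 RPM in pig. With a pseudocount of 5 RPM in place of 1 RPM, 32 and 35 genes met the rule. Of the 258 genes, 62 met it under each of 8 alternatives of scaling, pseudocount, depth, 0 reads and repeated symbols. A 5 RPM minimum, which kept 111 and 130 genes, was not among the 8. Nor was leaving out symbols whose spans overlap another row, which kept 78 and 81 genes. These 62 included ERO1B, PARP14, GPLD1 and LAMB1 in one direction and CTSC, NR1I2, GYG1, HMGCS1, INSIG1, MDM2 and BMPR1B in the other.

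Extracellular matrix genes were found in 1 direction only. The matrix list holds 56 shared symbols, and 5 of them (8.93%, against 1.95% of all shared symbols) moved opposite ways: COL12A1, COL1A2, LAMB1, NID1 and LOXL2. Each was higher in the cow blastocyst and lower in the pig blastocyst. Of the list as a whole, 22 of 44 tested genes rose and 9 fell in cow with a median change of 2.08, and 16 of 41 rose and 13 fell in pig with a median of 1.28. All tested symbols had medians of 0.12 in cow and 0.44 in pig.

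COL12A1 encodes collagen XII, which lies on the surface of collagen fibrils (cow chromosome 9, 14869511 to 14983763; pig chromosome 1, 90744289 to 90872963). Its levels in cow were 1.01, 0.225, 9.39, 45.1 and 65.6 RPM from the oocyte through the 2-4 cell, 8-16 cell and morula stages to the blastocyst, and in pig 15.1, 23.0 and 6.95 RPM followed by 0 reads in morula and blastocyst. That made the cow blastocyst 64.7-fold higher than the cow oocyte and the pig blastocyst at least 18.8-fold lower than the pig oocyte. The rise in cow was thus under way by the 8-16 cell stage, and the pig RNA was no longer detected from the morula on.

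LAMB1 encodes the laminin beta-1 chain of basement membranes. In cow it went from 25.4 and 19.2 RPM in oocyte and 2-4 cell embryo to 62.0, 163 and 204 RPM. In pig it stood at 311 RPM in the oocyte, dropped to 63.8, 50.5 and 21.0 RPM, and came back to 70.8 RPM in the blastocyst. The pig minimum was therefore at the morula and not at the end of the series.

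NID1, or nidogen-1, which links laminin to collagen IV, had 3 reads in the cow oocyte and 38.3 RPM in the cow blastocyst. In pig it read 8.29, 7.25, 3.47 and 5.99 RPM and then 0 reads. LOXL2, an enzyme that crosslinks collagen, read 0.406, 0.901, 1.29, 7.69 and 7.40 RPM in cow and 7.40 RPM, 24 reads (5.799 RPM) and 2.84 RPM followed by 0 reads in both last pig stages. COL1A2, a chain of collagen I, rose only at the cow blastocyst, with 14.0 RPM after 0 reads in the morula. In pig COL1A2 was highest in the 2-4 cell embryo at 11.6 RPM and had 0 reads in the blastocyst. LOXL2 lies in a span that overlaps another row of both tables, and COL1A2 and LOXL2 each left the set under at least 1 alternative scaling or depth besides the larger pseudocount.

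Other basement membrane genes of the list differed in direction. LAMA1 changed by 4.00 in cow and 6.22 in pig, HSPG2 (perlecan) by 3.98 and 4.08, and COL4A2 by 3.26 and 2.45, each upward in both species. NID2, the second nidogen, was lower in both, at -1.33 in cow and -7.01 in pig. FN1, fibronectin, changed by 8.90 in cow, from 9.13 to 4843 RPM, and by 3.65 in pig, from 2.96 to 48.8 RPM. SPARC, a matrix glycoprotein of basement membranes, went from 2.64 to 305 RPM in cow and had 0 reads in all 5 pig libraries.

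The summed level of hypoblast markers rose in both species, while the 5 matrix genes rose in cow and fell in pig. Of the shared hypoblast markers, 4 of 4 tested rose by 2 or more in cow, and 2 of 4 tested did so in pig. The 6 listed hypoblast markers summed to 16.8 RPM in the cow oocyte and 5397 RPM in the cow blastocyst, most of it FN1. The 5 markers found in the pig table summed to 9.47 and 321 RPM, most of the latter GATA6, with SOX17 at 0 reads in the pig blastocyst. PDGFRA, another hypoblast marker, stood at 270 RPM in the cow blastocyst and 3.75 RPM in the pig blastocyst, while GATA6 stood at 226 and 261 RPM. Fibroblast markers summed to 16.7 RPM in the cow blastocyst, of which COL1A2 gave 14.0 RPM, and to 5.90 RPM in the pig blastocyst, where DCN was the only one with reads. The part of these cell types in the opposite changes was not tested.

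4 more matrix regulators had the same direction and were singled out after their values were seen. They are the protease inhibitors RECK and TIMP4, the protease ADAMTS7 and its relative ADAMTSL4. RECK read 1.62 RPM in the cow oocyte and 13.3 RPM in the cow blastocyst, and in pig it climbed from 25.2 RPM to 57.9 RPM in the morula before it dropped to 1.34 RPM. The other 3 had 0 reads in the pig blastocyst and between 4.02 and 11.4 RPM in the cow blastocyst. All 258 genes were also sorted by role after the values were seen, with no share of other symbols to set beside the counts. In that sorting extracellular matrix and its enzymes held 9 genes higher in cow and 0 in the other direction. With a pseudocount of 5 RPM LAMB1 was the 1 of them that met the rule, and RECK, TIMP4, ADAMTS7 and ADAMTSL4 also missed it under quantile normalisation.

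**Figure D2:**
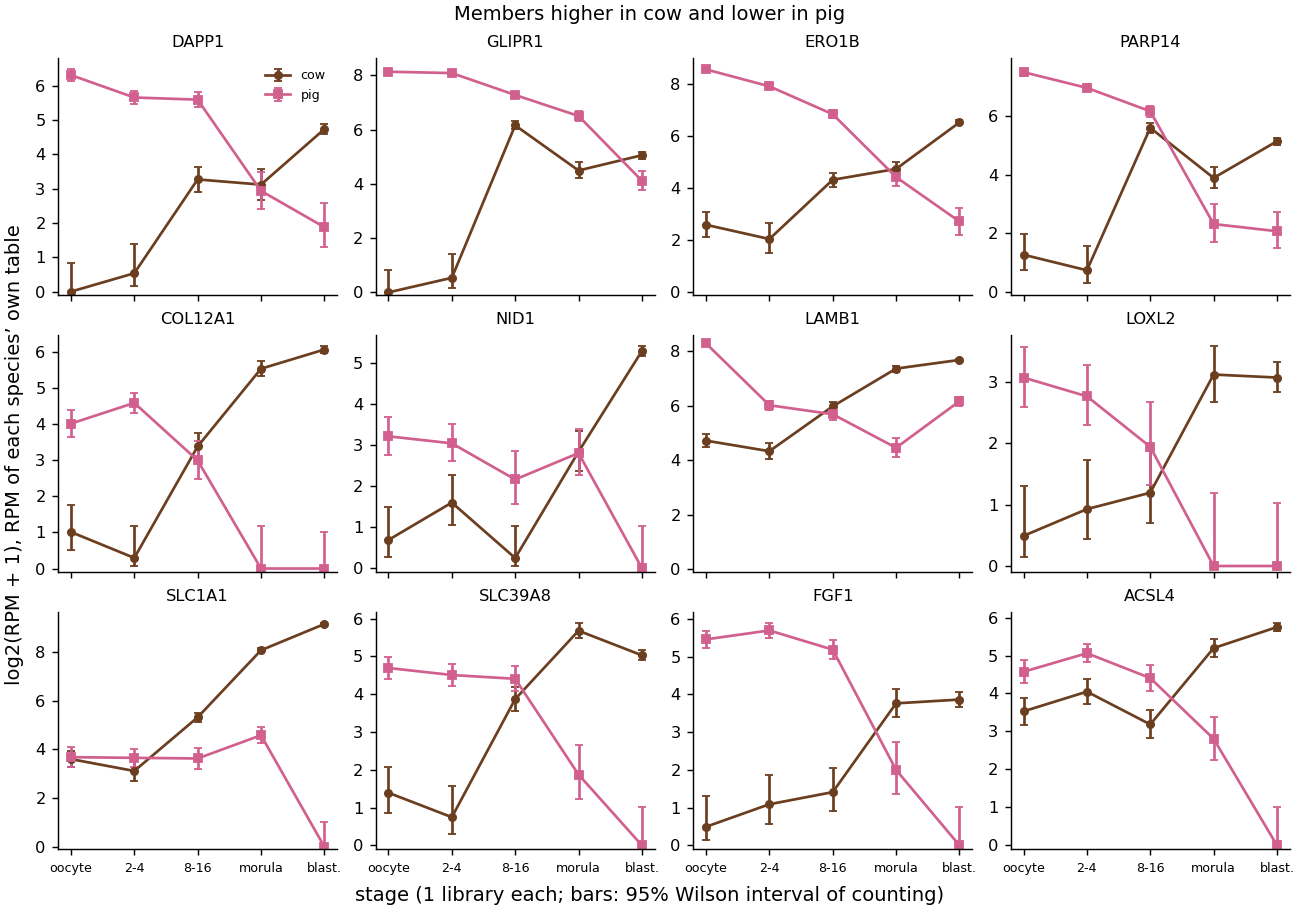
Levels of 12 genes higher in cow and lower in pig, as log2(RPM + 1) on the vertical axis against stage, with cow as circles and pig as squares; each point is 1 library and bars are 95% Wilson intervals of counting. Pig lines of SLC39A8, FGF1 and SLC1A1 stay near their oocyte level to the 8-16 cell stage and end at 0 reads, while cow lines of DAPP1, GLIPR1 and PARP14 go up at the 8-16 cell stage and those of NID1 and SLC1A1 keep rising to the blastocyst.

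The transporters SLC1A1 and SLC39A8 were higher in cow and lower in pig. SLC1A1 imports glutamate and cysteine. It read 11.2, 7.66, 39.0, 270 and 571 RPM in cow, a 51.2-fold difference between oocyte and blastocyst, and 11.8, 11.6, 11.4 and 23.0 RPM in pig before 0 reads in the blastocyst. The pig level was thus highest in the morula, 1 stage before the RNA was undetected. SLC39A8, which imports zinc and manganese, read 1.62 and 0.676 RPM in the first cow stages and 13.6, 50.3 and 31.7 RPM after them, and in pig 24.9, 21.7, 20.2 and 2.66 RPM and then 0 reads.

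Export pumps of the ABC family ran the other way. ABCB11, ABCG2 and ABCA12 are 3 of 39 shared ABC transporters (7.69%, beside 1.95% of all shared symbols), and these 3 were lower in cow and higher in pig. With a pseudocount of 5 RPM none of the 3 met the rule. ABCB11, the bile salt export pump, read 12.6, 8.11, 3.50 and 5.90 RPM in cow and then 0 reads. In pig it read 34.9, 33.6, 42.6, 608 and 1847 RPM, so that the blastocyst was 52.9-fold above the oocyte. ABCG2, an exporter of drugs and urate (singled out after its values were seen), went from 16.6 to 1.76 RPM in cow, with 31.0 RPM in the morula, and from 1.18 to 267 RPM in pig. ABCA12, a lipid exporter chosen in the same way, had 0 reads in the cow morula and blastocyst and went from 0 reads to 208 RPM in pig. Over the family as a whole, 7 of 31 tested genes rose and 6 fell in cow, and 11 of 29 rose and 7 fell in pig.

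NR1I2, the nuclear receptor PXR that switches on drug-handling genes, was also lower in cow and higher in pig. It read 16.6, 15.1 and 2.95 RPM in cow, then 2 reads in the morula and 0 in the blastocyst. In pig it read 1.78 RPM in the oocyte, 2 reads in the 2-4 cell embryo and then 11.4, 37.0 and 83.1 RPM. TPMT, which methylates thiopurine drugs, read 69.2 and 54.1 RPM in the first cow stages and 1.47, 2.56 and 2.61 RPM after them, and rose in pig from 2.37 to 45.6 RPM. Both genes were past the midpoint of their cow decline at the 8-16 cell stage. ABCA12 passed it at the morula, and ABCB11 and ABCG2 only at the blastocyst. The pig spans of NR1I2, TPMT and ABCB11 overlap another row, and ABCG2 overlaps one in both tables; whether reads were assigned by strand is not given in the sources used here.

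**Figure D3:**
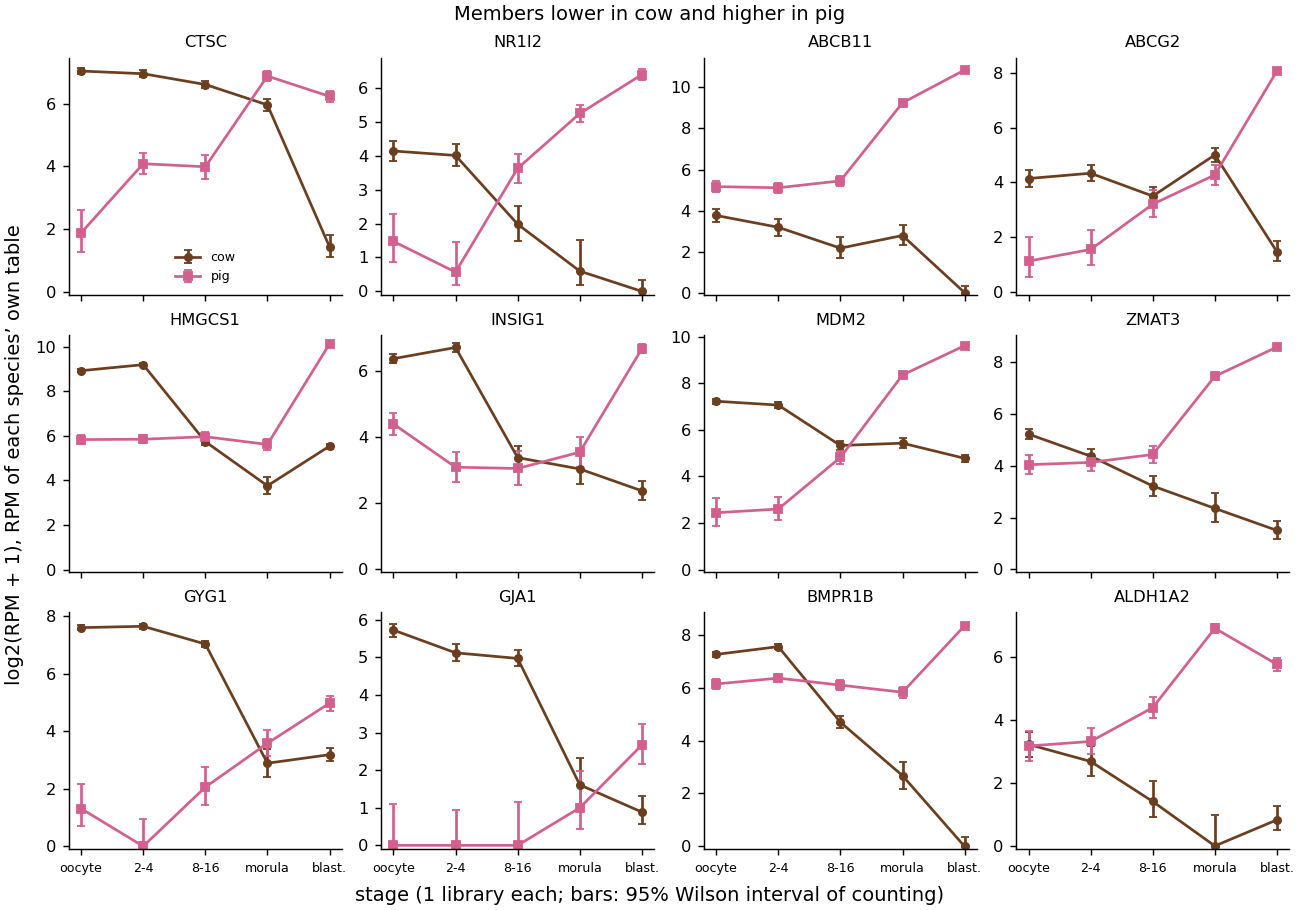
Levels of 12 genes lower in cow and higher in pig, as log2(RPM + 1) on the vertical axis against stage, with cow as circles and pig as squares; each point is 1 library and bars are 95% Wilson intervals of counting. Cow lines of HMGCS1, INSIG1, NR1I2 and BMPR1B drop at the 8-16 cell stage, CTSC and ABCG2 drop between morula and blastocyst, and most pig lines climb in the morula or the blastocyst.

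Cholesterol synthesis gave a split within 1 pathway. The cell makes cholesterol from acetyl-CoA through mevalonate, and INSIG1 is the protein that holds the pathway's activator in the endoplasmic reticulum when sterols are plentiful. HMGCS1, the cytosolic synthase that makes the precursor of mevalonate (cow chromosome 20, 31451386 to 31474239; pig chromosome 16, 27936229 to 27957227), read 482, 582, 52.5, 12.6 and 45.5 RPM in cow, a 10.6-fold difference from oocyte to blastocyst. In pig it stayed between 48.0 and 61.3 RPM through the morula and then reached 1109 RPM, a 19.8-fold difference. INSIG1 read 82.6, 105, 9.39, 7.18 and 4.16 RPM in cow and 20.1, 7.49, 7.26, 10.7 and 102 RPM in pig. Both genes thus lost most of their RNA at the 8-16 cell stage in cow and gained it only at the blastocyst in pig.

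Some later enzymes of the route rose in both species, and 1, TM7SF2, moved opposite ways. MVD (2.45 in cow and 6.68 in pig), DHCR7 (2.21 and 4.47) and SC5D (2.24 and 3.62) were those that rose in both. CYP51A1, SQLE and MVK rose in pig by 2.20 to 3.53 and stayed under 2 in cow, between 0.22 and 1.55. SREBF2, the pathway's transcription factor, changed by 1.24 in cow and 3.12 in pig.

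TM7SF2, a sterol reductase chosen after its values were seen, had 5.07 RPM in the cow oocyte and 0 reads in the cow morula and blastocyst, against 1.18 and 22.3 RPM in the pig oocyte and blastocyst. MBTPS2, the protease that frees the sterol-responsive transcription factors and was chosen in the same way, had the reverse pattern, with 1 read in the cow oocyte and 24.3 RPM in the cow blastocyst, and 43.5 and 5.90 RPM in pig. The list of steroid, retinoid and lipid genes, 87 shared symbols, held 6 of the 258 genes (6.90%, beside 1.95% of all shared symbols). In the whole list 20 of 68 tested genes rose and 18 fell in cow with a median of 0.70, and 35 of 68 rose and 10 fell in pig with a median of 2.04.

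**Figure D4:**
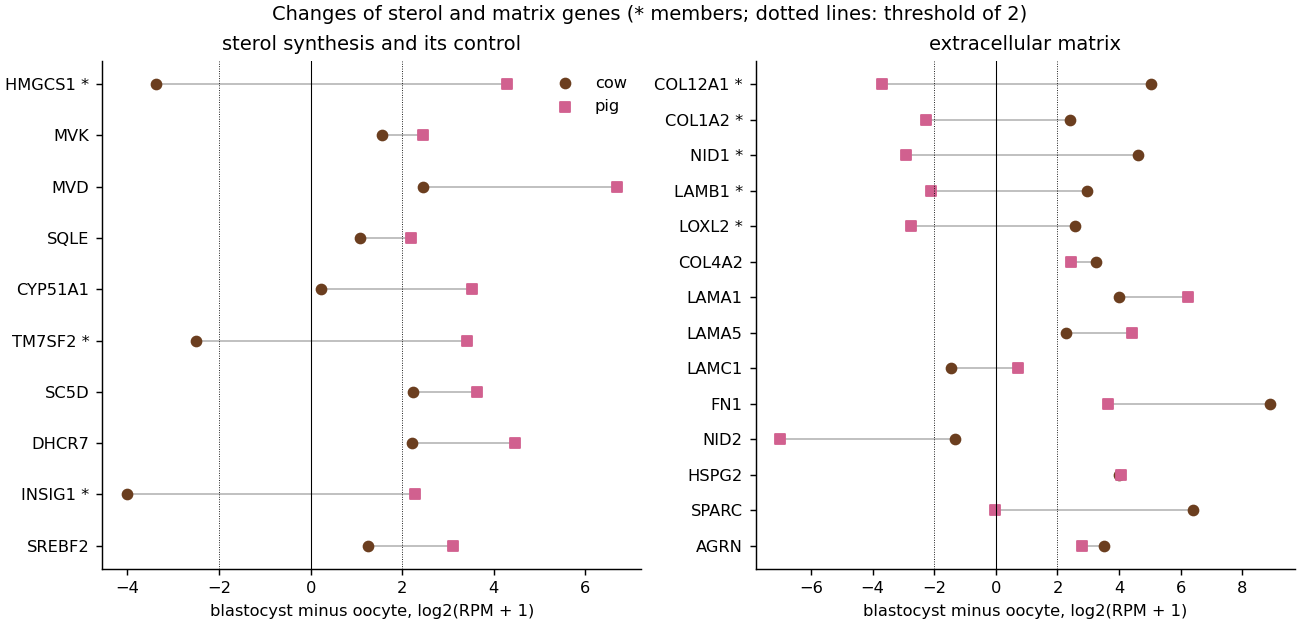
Change from oocyte to blastocyst in log2(RPM + 1) on the horizontal axis for 10 genes of sterol synthesis and its control (left) and 14 extracellular matrix genes (right), cow as circles and pig as squares, joined by a line per gene; an asterisk marks the genes that moved opposite ways. TM7SF2 was added to the listed sterol genes after its values were seen. HMGCS1, INSIG1 and TM7SF2 are the 3 plotted sterol genes with a cow value below -2, and the 5 marked matrix genes have cow values above 2 and pig values below -2.

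The remaining genes of that list act on fatty acids, cortisol and retinoids. ACSL4, which activates arachidonic acid, read 10.5, 15.5, 8.10, 35.6 and 52.8 RPM in cow and 22.8, 32.4, 20.2 and 5.99 RPM in pig before 0 reads. ACSS2, which makes acetyl-CoA from acetate, went in cow from 6.29 to 0.353 RPM and in pig from 12.4 to 53.4 RPM. Its pig change of 2.02 dropped below the threshold under median scaling, quantile normalisation and a pseudocount of 5 RPM. Under thinning to equal depth the pig change stayed above the threshold, and the cow change of ACSS2 fell short of it. The cow change also fell short with the pseudocount of 5 RPM. HSD11B2, which inactivates cortisol, read 13.0 and 2.93 RPM in the first cow stages, 2 reads at the 8-16 cell stage and 0 after it. In pig HSD11B2 had 10 reads in the oocyte (2.96 RPM, interval 1.61 to 5.45), 0 reads in the 3 stages that follow and 22.3 RPM in the blastocyst. ALDH1A2, which makes retinoic acid, went from 8.32 to 0.776 RPM in cow and from 7.99 RPM through 119 RPM in the morula to 53.1 RPM in pig.

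MDM2 and ZMAT3, both tied to p53, the protein that halts or kills damaged cells, were lower in cow and higher in pig. MDM2, the ligase that marks p53 for degradation (cow chromosome 5, 45178135 to 45203567; pig chromosome 5, 33087010 to 33164514), read 149, 133, 39.2, 42.1 and 26.4 RPM in cow. In pig it read 4.44, 5.07, 27.2, 326 and 782 RPM, a 176-fold difference between oocyte and blastocyst. ZMAT3, an RNA-binding protein that p53 switches on, read 36.1, 19.6, 8.28, 4.10 and 1.83 RPM in cow and 15.4, 16.4, 20.5, 173 and 379 RPM in pig. In pig both genes were highest in the blastocyst and rose most steeply between the 8-16 cell stage and the morula. Of the 105 shared symbols on the cell cycle and repair list, MDM2 was the 1 that moved opposite ways (0.952%, beside 1.95% of all shared symbols). The list is not complete, since ABRAXAS1, a partner of BRCA1 in DNA repair, also moved opposite ways and is not on it.

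Signalling genes were found in both directions. FGF1, a fibroblast growth factor, had 2 reads in the cow oocyte and 12.6 and 13.5 RPM in the cow morula and blastocyst. In pig it read 42.9, 50.7 and 35.4 RPM, then 9 reads and 0 reads. SPRY4, an inhibitor of the signal that such factors start, had 3 reads in the cow oocyte and 26.2 RPM in the cow blastocyst, and in pig it peaked at 102 RPM in the morula before 0 reads in the blastocyst. The pig oocyte held 8.59 RPM of SPRY4, so its opposite change rests on the last pig stage alone. GLI1, a transcription factor that Hedgehog signals switch on, had at most 2 reads in the cow libraries before the blastocyst and 6.42 RPM there, against 32.0, 7.49 and 7.90 RPM, 2 reads and 0 reads in pig.

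Of the signalling lists, BMPR1B, DVL2 and MOB1A were lower in cow and higher in pig. BMPR1B, a receptor for bone morphogenetic proteins, read 151, 186, 24.9 and 5.39 RPM in cow and then 0 reads, and in pig stayed between 55.6 and 80.9 RPM through the morula before 322 RPM. DVL2, which relays WNT signals, went in cow from 11.2 to 0.635 RPM and in pig from 2.37 to 35.7 RPM. MOB1A, a partner of the Hippo kinases, read 184, 136, 362, 89.2 and 36.0 RPM in cow and rose in pig from 1 read to 80.6 RPM in the morula and 51.5 RPM in the blastocyst. With scaling to non-mitochondrial reads MOB1A no longer reached the threshold. Their lists held 1 of 58 WNT genes (1.72%), 1 of 44 TGF-beta and BMP genes (2.27%), 2 of 78 receptor kinase genes (2.56%) and 2 of 45 Notch, Hippo and Hedgehog genes (4.44%), beside 1.95% of all shared symbols.

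The junction and adhesion list, 62 shared symbols, held 3 of the genes (4.84%, beside 1.95% of all shared symbols), GJA1, ALCAM and CD44, each lower in cow and higher in pig. GJA1, the gap junction protein connexin 43, read 51.9, 33.8, 30.4, 2.05 and 0.846 RPM in cow. In pig GJA1 had 0 reads up to the 8-16 cell stage, 3 reads in the morula and 5.36 RPM in the blastocyst (interval 3.47 to 8.28). ALCAM, an adhesion molecule, read between 13.8 and 26.1 RPM in cow up to the morula and 1.41 RPM in the blastocyst, and 32.3, 36.2, 58.7, 363 and 338 RPM in pig. CD44, the receptor for hyaluronan, went from 4.46 RPM to 0 reads in cow and from 1 read to 13.4 RPM in pig. CD59, which shields cells from complement and hangs on a lipid anchor, had the reverse pattern, 3.85 and 44.9 RPM in cow and 30.8 and 5.36 RPM in pig. GPLD1, the phospholipase that cuts such anchors, also went up in cow, from 7.10 to 113 RPM, and down in pig, from 442 to 37.8 RPM.

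Other genes higher in cow and among the 15 with the largest smaller change were of varied function. ERO1B, an oxidase that forms disulphide bonds in the endoplasmic reticulum, read 5.07, 3.15, 19.1, 25.9 and 91.9 RPM in cow and 381, 242, 115, 20.6 and 5.63 RPM in pig. PARP14, which attaches ADP-ribose to proteins, went from 1.42 to 34.3 RPM in cow with its highest level of 47.5 RPM at the 8-16 cell stage, and from 180 to 3.22 RPM in pig. DAPP1, an adaptor of phosphoinositide signalling, had 0 reads in the cow oocyte and 25.7 RPM in the cow blastocyst, at least 42.2-fold higher, and fell from 78.5 to 2.68 RPM in pig. GLIPR1, a member of the CAP protein family, had 0 reads in the cow oocyte, 70.5 RPM at the 8-16 cell stage and 32.3 RPM in the blastocyst, against 281 and 16.4 RPM in the pig oocyte and blastocyst.

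In pig ERO1B, PARP14, DAPP1 and GLIPR1 were highest in the oocyte and lowest in the blastocyst. IER3, an early response gene, read 0.811 and 51.3 RPM in the cow oocyte and blastocyst, and 15.7 RPM and 0 reads in pig. TLNRD1, an actin-bundling protein, had 0 reads in the first cow stages, 50.01 RPM in the morula and 14.0 RPM in the blastocyst, and went from 48.3 to 1.61 RPM in pig. STON2, an adaptor of endocytosis, went in cow from 1.42 to 26.0 RPM and in pig from 92.1 to 7.51 RPM. TMEM45B, ZNF740 and C17orf80 were also among the 15 genes with the largest smaller change in this direction, with cow changes of 3.88, 3.91 and 3.57 and pig changes of -3.90, -3.75 and -4.45.

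In the other direction CTSC had the largest smaller change, 4.36. CTSC encodes cathepsin C, a lysosomal peptidase that activates other proteases. It read 131, 123, 96.8, 61.3 and 1.69 RPM in cow and 2.66, 15.9, 14.8, 117 and 74.3 RPM in pig. MPIG6B, a receptor known from platelets, read 200, 227, 75.8 and 4.36 RPM in cow and 4 reads in the blastocyst (0.282 RPM, interval 0.110 to 0.725), and had 3 reads in the pig oocyte and 31.6 RPM in the pig blastocyst. The cow change of MPIG6B, -7.30, was the largest of the 258 genes in cow.

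The others with the largest smaller change in this direction were of varied function. GYG1, or glycogenin, which primes glycogen, read 194, 201, 131, 6.41 and 8.11 RPM in cow and 1.48 RPM, 0 reads, 3.16, 10.99 and 30.6 RPM in pig. CPOX, an enzyme of heme synthesis, went in cow from 28.4 to 1.90 RPM and in pig from 9.18 to 105 RPM. FBXO32, a ubiquitin ligase known from muscle wasting, went from 37.5 to 2.19 RPM and from 1.48 to 47.5 RPM. RIT1, a RAS-like GTPase, read 295, 248, 135, 41.8 and 17.2 RPM in cow and rose in pig from 0 reads to 79.4 RPM. GBX1, a homeobox factor, dropped from 16.6 RPM to 3 reads in cow, and its pig level rose from 1.18 to 31.6 RPM. ATP5S, PDE6A and FAM81A complete the 15, with cow changes of -3.68, -3.51 and -4.01 and pig changes of 3.68, 3.53 and 3.43.

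Sorted by role after their values were seen, 153 of the 258 genes could be placed and 105 could not. Genes of amino acid, sugar, nucleotide and cofactor metabolism numbered 5 higher in cow and 13 lower, among them GLUL, glutamine synthetase, with 581 and 110 RPM in the cow oocyte and blastocyst and 169 and 1280 RPM in pig. MTHFD1, an enzyme of folate metabolism, read 191 and 41.9 RPM in cow and 7.99 and 149 RPM in pig. GLUL and MTHFD1 both left the set under scaling to non-mitochondrial reads and under quantile normalisation. Ion and solute transport numbered 11 higher in cow and 5 lower, and signalling 15 and 8. Transcription factors and chromatin numbered 9 and 12, fatty acid and related lipid metabolism 7 and 6, and mitochondrial carriers, import and translation 4 and 8. Cell surface and junction numbered 4 and 5, the cytoskeleton 4 and 6, and lysosome and vesicle traffic 3 and 6. Roles were given to the 258 genes only, so these counts have no share of all symbols beside them. Of the chromatin regulator list, 154 shared symbols, 0 were among the 258, where 1.95% of all shared symbols were. The 2 symbols left out by the rule could not count here, so this 0 does not show that no regulator moved opposite ways. The marker lists for oocyte, trophectoderm, epiblast and hypoblast also held 0, and with 3 to 9 shared symbols each they are too short to read. HSPB1, a small heat shock protein singled out after its values were seen, had the largest cow change of the genes higher in cow, 6.25, from 7.30 to 633 RPM, and in pig it went from 6.51 RPM to 0 reads.

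The libraries between oocyte and blastocyst played no part in the choice of the genes, though RNA carried over from the oocyte links them to it. From the 2-4 cell stage to the morula, 62 of the 121 genes higher in cow rose by 2 or more in cow (51.2%, where 16.3% of all tested symbols were called higher), and 42 fell by 2 or more in pig (34.7%, where 11% of all tested symbols were called lower). Other symbols that rose in cow from oocyte to blastocyst did so between those stages in 42.0% of 1956 cases, and other pig decliners in 41.7% of 1726 cases. Of the 137 genes lower in cow, 75 fell in cow (54.7%, where 19.5% of all tested symbols were called lower) and 55 rose in pig (40.1%, where 20.3% were called higher). The matching shares for other symbols of those directions were 58.9% of 1688 and 44.5% of 2419. The share of the genes lay above that of the other symbols in 1 of these 4 comparisons, the cow rise, and below it in the other 3.

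Both movements at once were counted over the same libraries. 23 of the 121 genes (19.0%) rose in cow and fell in pig by 2 or more between the 2-4 cell stage and the morula. Of all tested symbols 0.913% did so. 23 of the 137 (16.8%) fell in cow and rose in pig, and 1.78% of all tested symbols did. The genes were chosen for these directions, so an excess over all symbols follows in part from the choice. With a pseudocount of 5 RPM the counts were 10 and 8. Counting any size of change, 84 of 121 and 107 of 137 had opposite signs in the direction of their oocyte to blastocyst change. COL12A1 led the first set with 5.23 in cow and -4.20 in pig, and PARP14 (3.15 and -4.64), ERO1B (2.70 and -3.49), FGF1 (2.67 and -3.69), SLC39A8 (4.93 and -2.63) and LOXL2 (2.19 and -2.39) were in it. NR1I2 (-3.41 and 4.68), GYG1 (-4.77 and 3.30), GBX1 (-3.73 and 3.08), ALDH1A2 (-2.38 and 3.59) and ZMAT3 (-2.01 and 3.32) were in the second. PRKAA2, a catalytic subunit of the energy sensor AMPK singled out here for its values, led the second set with -4.32 in cow and 3.83 in pig.

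Timing was set by the course of each gene between the end stages. A gene's timing was taken as the first stage at which it had passed the midpoint of its oocyte to blastocyst change for good. Of the 121 genes higher in cow, 42 had passed it at the cow 8-16 cell stage, 35 at the morula and 44 at the blastocyst, and 0 at the 2-4 cell stage. In pig the decline of these genes passed its midpoint in 7 genes at the 2-4 cell stage, in 4 at the 8-16 cell stage, in 56 in the morula and in 54 in the blastocyst. Of the 137 genes lower in cow, 58 passed the midpoint at the cow 8-16 cell stage, 36 at the morula and 41 at the blastocyst, whereas in pig 10 did so at the 8-16 cell stage, 58 at the morula and 65 at the blastocyst. At the 8-16 cell stage the genes stood beside other symbols of their direction with 34.7% against 34.2% of cow risers, 42.3% against 37.2% of cow decliners, 3.31% against 4.40% of pig decliners and 7.30% against 12.5% of pig risers. At the morula the cow risers numbered 28.9% against 22.4% and the cow decliners 26.3% against 32.1%. Pig decliners numbered 46.3% against 52.4% there, and pig risers 42.3% against 36.6%. At the blastocyst the cow risers numbered 36.4% against 42.5% and the cow decliners 29.9% against 30.2%. Pig decliners numbered 44.6% against 40.2% there, and pig risers 47.4% against 46.1%.

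The highest level of a gene was often not at an end of the series. In cow, 80 of the 121 higher genes peaked in the blastocyst, 26 in the morula and 15 at the 8-16 cell stage. In pig 68 of them peaked in the oocyte, 23 in the 2-4 cell embryo, 16 in the 8-16 cell embryo and 14 in the morula. Of the 137 genes lower in cow, 70 peaked in the cow 2-4 cell embryo and 49 in the oocyte, and 114 peaked in the pig blastocyst.

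Ranks within each library allow a view across species, since they do not use the scale of the tables. The 121 genes higher in cow had a median rank percentile of 42.9 in the cow oocyte and 76.2 in the pig oocyte, and of 72.6 in the cow blastocyst and 40.6 in the pig blastocyst. The pig rank was the higher one for 115 of them in the oocyte and for 119 at the 2-4 cell stage, and the cow rank for 66 in the morula and 112 in the blastocyst. For the 137 genes lower in cow, the cow rank was higher for 129 in the oocyte, 125 at the 2-4 cell stage, 105 at the 8-16 cell stage, 56 in the morula and 7 in the blastocyst. Ranks of oocyte and blastocyst follow from the rule, while those of the 3 stages between were not used by it. The crossing of the species lay between the 8-16 cell stage and the morula in both directions.

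**Figure D5:**
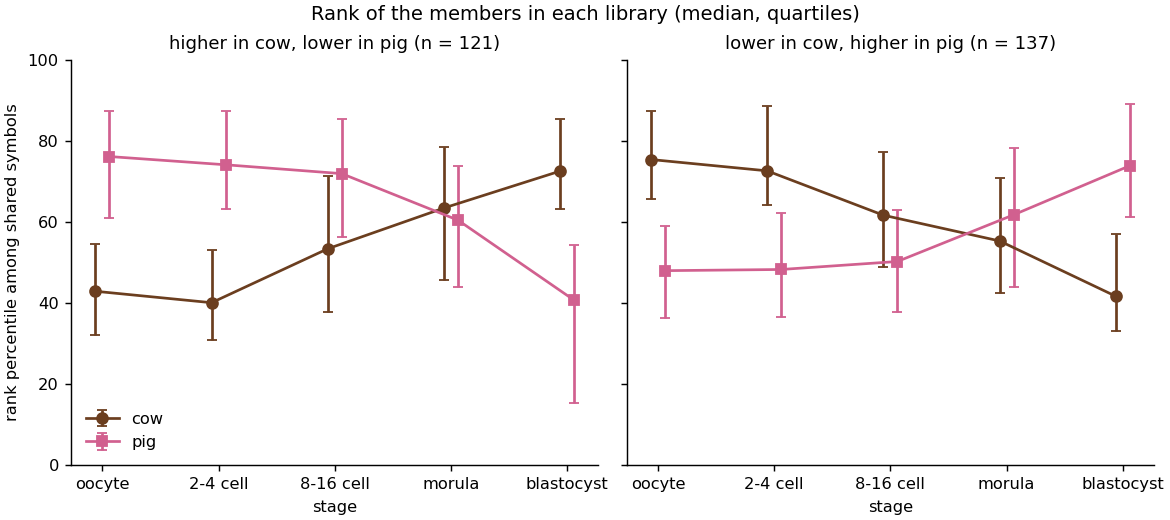
Rank percentile of the genes among all shared symbols of a library (vertical axis, percent) at each stage, cow as circles and pig as squares; points are medians over the 121 genes (left) or 137 genes (right) and bars span the quartiles. The medians of both species cross between the 8-16 cell stage, with 53.4 in cow and 71.9 in pig on the left, and the morula, with 63.5 and 60.4.

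The genes were spread over the genome. Adjacent pairs of them were 5 in cow and 4 in pig, and 2 pairs were adjacent in both. SPATA7 and PTPN21 lie end to end on cow chromosome 10 (101186186 to 101308928) and pig chromosome 7 (110309462 to 110449557), on opposite strands, and both were higher in cow and lower in pig. SPATA7, a protein of the photoreceptor cilium, went in cow from 1.62 to 13.9 RPM and in pig from 153 to 28.4 RPM, and PTPN21, a tyrosine phosphatase, from 19.5 to 85.7 RPM and from 63.7 to 14.2 RPM. MRPS18C and ABRAXAS1 lie together on cow chromosome 6 (100006745 to 100031182) and pig chromosome 8 (135002308 to 135026724), where their spans overlap, and both were lower in cow and higher in pig. MRPS18C, a mitochondrial ribosomal protein, went in cow from 71.4 to 13.3 RPM and in pig from 6.51 to 34.0 RPM, and ABRAXAS1, a partner of BRCA1 in DNA repair, from 67.7 to 14.5 RPM and from 5.03 to 38.3 RPM. In the pig these overlapping genes had near-equal levels in every library from the 8-16 cell stage on, and without strand the reads of overlapping genes cannot be told apart. With scaling to non-mitochondrial reads MRPS18C, ABRAXAS1 and PTPN21 no longer met the rule.

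The other adjacent pairs were adjacent in 1 species only. In cow they were GPLD1 with MRS2, a mitochondrial magnesium channel that peaked at 456 RPM in the cow morula, SPRY4 with FGF1, and IPO8 with TMTC1, which had opposite directions. In pig they were SPRYD4 with RBMS2, and FBRS with ZNF689, which also had opposite directions. RBMS2, an RNA-binding protein, had the largest pig change of the genes higher in cow, -6.79, from 586 to 4.29 RPM, and went from 5.88 to 69.0 RPM in cow. In cow 25 of the 258 spans overlapped another row (9.69%, against 7.82% of all shared symbols) and in pig 92 did (35.7%, against 30.3%). 11 of the genes lay on the X chromosome in each table, 4.26% of them against 3.43% of shared symbols in cow and 3.37% in pig. The median span was 38004 bases in cow, against 20931 for all shared symbols, and 51284 in pig, against 28434.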

How the data were processed

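Total RNA of oocytes and preimplantation embryos was extracted with a PicoPure kit, amplified with the Ovation RNA-Seq V2 kit for small inputs and made into libraries with 8 PCR cycles, per the labels' protocols. Per the submitters' processing notes, Trim Galore 0.6.4 and HISAT2 2.1.0 were used with the builds UMD3.1 (cow) and Sscrofa11.1 (pig). The counting tool, the annotation and the use of strand are not given in the sources used here. The deposited values are log2 RPM in 1 table per species; the authors wrote 0 reads as 0.9 of a read, as the values show, and the step of 1 read gave each library's read total. Coordinates are those of the deposited tables.

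Values were turned into RPM with Python 3.11.15 (pandas 2.3.3, numpy 2.4.6) and changes computed on log2(RPM + 1), which understates the change of low genes. Of 22845 cow and 21867 pig rows, 4144 and 5666 carry identifiers without a symbol and were left out; of repeated symbols (190 and 97) the row with the highest mean was used. A symbol was tested at 1 RPM or more in at least 1 stage and called at an absolute change of 2. Equal symbols were taken as the same gene. 255 of the 258 genes matched a RefSeq entry, each protein coding. Folds against 0 reads use a floor of 3 reads per library, and none is given against 1 to 3 reads. Overlap means that the span of a gene shares bases with another row. The scripts were tested on simulated data. Promoter sequences were not analysed here.

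The genes and lists were chosen with earlier results of these data known. Genes are named by a rule: in each direction the 15 genes with the largest smaller absolute change, all genes in a fixed list, 3 genes on each side of the threshold, and adjacent genes. Others were singled out after their values were seen, and roles were assigned by hand after that as well. A few genes that this rule or a list would name are not reported here.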

Additional observations from a re-analysis of the deposited data

Results flagged for a closer look

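Of the genes higher in cow and lower in pig, 23 rose by 2 or more in cow and fell by 2 or more in pig between the 2-4 cell stage and the morula, where 0.913% of all tested symbols did. Of the genes lower in cow and higher in pig, 23 did the reverse over the same stages, where 1.78% of all tested symbols did. RNA carried over from the oocyte ties these libraries to those that chose the genes. These counts are given here because each species' single library pair moved the opposite way to that of the other species. The genes were chosen for opposite changes, so a share above that of all symbols follows in part from the choice. In the first direction 51.2% rose in cow, 34.7% fell in pig and 19.0% did both. In the second direction 54.7% fell in cow, 40.1% rose in pig and 16.8% did both. An excess over the shares of the single species was not tested. The difference between the species was not tested, since each stage had 1 library.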

How the results depend on the processing

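Alternatives of pseudocount, scaling, depth, filter and threshold were tried. For members higher in cow and lower in pig and members lower in cow and higher in pig, a pseudocount of 5 RPM gave counts of 32 and 35, and the share of symbols changed in both species that moved opposite ways became 6.76%. A threshold of 1.5 gave 214, 274 and 16.6%, and a threshold of 3 gave 20, 27 and 5.71%. Without symbols whose spans overlap another row the counts were 78 and 81. For members moving between the 2-4 cell stage and the morula (in cow, in pig, and opposite in both at once) a pseudocount of 5 RPM gave 34, 27 and 10 in the first direction and 49, 36 and 8 in the second. A threshold of 3 gave 36, 22 and 5, then 40, 31 and 5; a threshold of 1.5 gave 37 and 35 for both species at once. Median scaling gave 15 for members lower in cow and higher in pig that were opposite in both from the 2-4 cell stage to the morula. Each of these alternatives moves the count by its own construction, except median scaling, where the cause was not tested. The other alternatives (a pseudocount of 0.5 RPM, scaling to non-mitochondrial reads, quantile normalisation, thinning to equal depth, 0 reads as 0 RPM, a 5 RPM minimum and leaving out repeated symbols) kept the counts of members and their share within 1.5 times. The counts between the 2-4 cell stage and the morula were not recomputed under the last 3 of these, nor without overlapping spans. Scaling to non-mitochondrial reads shifted the median of all genes by 0.38 in cow and 0.12 in pig, quantile normalisation by -0.12 and -0.30, and a pseudocount of 5 RPM by -0.18 in pig. Of 1008 values of named genes under these alternatives 160 moved and 0 changed sign, and 78 of 924 values of named members fell below the threshold of 2. The named members were chosen for changes of 2 or more, which left little room for a change of sign. No paired analysis was possible because each group had 1 library and none of the results comes from a test. Low read totals limit genes near 0 reads, most of all in the pig morula.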

Other observations

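Some of the 258 genes had their extreme at a stage the comparison of oocyte and blastocyst does not use, each picked after its values were seen. F2, prothrombin, had 0 reads in the cow oocyte, 22.1 RPM in the cow morula and 4.23 RPM in the cow blastocyst, while in pig it read 71.9, 28.3, 19.0 and 2.00 RPM and then 0 reads. PCDH15, a protocadherin of hair cells, read 73.3 RPM in the cow 8-16 cell embryo after 0 reads in the 2-4 cell embryo and stood at 7.47 RPM in the cow blastocyst. NAMPT, an enzyme of NAD synthesis, read 167, 126, 552, 95.7 and 32.2 RPM in cow, so its peak at the 8-16 cell stage lies above both ends of a gene counted as lower in cow.

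HNF4G, a nuclear receptor, had 0 reads in the cow oocyte and 25.4, 26.7 and 26.2 RPM in the last 3 cow stages, against 42.6, 57.3, 34.1, 44.0 and 8.85 RPM in pig. CENPA, the histone variant of centromeres, read 4.87, 12.4, 43.1, 40.3 and 33.6 RPM in cow and between 28.7 and 31.6 RPM in the first 4 pig stages before 2.95 RPM in the blastocyst. ASAH1, the lysosomal enzyme that splits ceramide, read 50.5 and 8.74 RPM in the cow oocyte and blastocyst and 19.8 and 342 RPM in pig. TXNIP, a brake on glucose uptake, went from 32.3 RPM to 0 reads in cow and from 1 read to 8.31 RPM in pig.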
